A study of Mus musculus with 572 samples.

Results

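The 50 cells described here are those with the highest mean normalized value of 7 genes of the intestinal and hepatic epithelium (Hnf4a, Hnf4g, Apob, Apoa1, Apoa4, Fabp1 and Vil1) among 572 single mTEChigh cells. They are called marker-high cells, or members, and were compared with the remaining cells of the same genotype. The cells were sorted from the thymus of neonatal C57BL/6 mice as CD45-, EpCAM+, Ly51- cells with high MHC class II, the phenotype of mature medullary thymic epithelial cells (mTEChigh), and each was sequenced in a library of its own by RamDA-seq, a full-length total RNA method. EED-cKO mice carry floxed Eed alleles and Cre under the control of Foxn1, which is expressed in thymic epithelial cells, so that the epithelium lacks EED, a core subunit of the Polycomb repressive complex 2 (PRC2). Aire/EED-dKO mice carry this deletion together with a knockout of Aire. Both genotypes therefore lack EED, and EED-sufficient cells were not used here. EED-cKO cells came from experimental batches 3 and 4 (day 4 after birth) and 8 and 9 (day 3), and Aire/EED-dKO cells from batches 1, 2, 6 and 7 (day 4), so that genotype and batch cannot be told apart. The labels give the sex as unknown and name no animal. Each genotype was therefore taken as 1 sample, no test was made, and all intervals are exact 95% intervals that cover counting error only, since amplified reads are not independent molecules.

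Medullary thymic epithelial cells display tissue-restricted self antigens to developing T cells. Aire, the autoimmune regulator, promotes the transcription of many of these genes, and some medullary cells resemble epithelia of peripheral organs and are known as mimetic cells. In the intestine, the nuclear receptors HNF4A and HNF4G activate genes for lipoprotein assembly and for the brush border, the layer of microvilli in which villin bundles actin and protocadherins join neighbouring tips. PRC2 places the repressive trimethyl mark on lysine 27 of histone H3.

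Marker-high cells were found in both genotypes and in all 8 batches. EED-cKO held 35 of them, which is 11.6% of its cells (Clopper-Pearson interval from 8.18% to 15.7%). Aire/EED-dKO held 15, which is 5.58% of its cells (from 3.15% to 9.03%). This gap depended on how many cells were chosen. With the 100 highest cells, 56 (18.5%) of the EED-cKO and 44 (16.4%) of the Aire/EED-dKO cells were among them, and with the 25 highest 15 (4.95%) and 10 (3.72%). Among EED-cKO batches they were 11 of 87 cells in batch 3, 6 of 76 in batch 4, 9 of 63 in batch 8 and 9 of 77 in batch 9. Among Aire/EED-dKO batches they were 3 of 88 in batch 1, 5 of 76 in batch 2, 1 of 38 in batch 6 and 6 of 67 in batch 7. The highest Aire/EED-dKO batch (8.96%) lay above the lowest EED-cKO batch (7.89%), so that the ranges overlapped. Within EED-cKO, 12.9% of day 3 and 10.4% of day 4 cells were members.

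The score was continuous across the limit of the selection. It ran from 1.54 to 0.2345 in the members, with a median of 0.378, and the first cell outside had 0.2337. The other 522 cells had a median of 0.0210, and 27 of them had 0. Epcam, H2-Aa, Cd74 and Krt8 had at least 5 reads in every cell of both groups. Ptprc (CD45), which the sort selects against, had 5 reads in 3 of 35 and 2 of 15 members and in 4.48% and 5.91% of the remaining cells. Median depth was 1118157 reads in the members and 1270252 in the remaining cells of EED-cKO, and 916875 and 939300 in Aire/EED-dKO. With every cell thinned to 200000 reads, the median number of genes was 12111 against 12132 and 12091 against 12141.

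The 7 markers chose the cells, so that their levels are a description. Of the 2 nuclear receptors, Hnf4g (chr3:3508030-3658052, GRCm38, plus strand) had at least 5 reads in 27 of 35 EED-cKO and in all 15 Aire/EED-dKO members. Its level over the summed cells was 75.2 CPM (read counts scaled to the total reads of the group) against 8.04 CPM in the remaining cells of EED-cKO, and 155.8 against 19.2 CPM in Aire/EED-dKO. Hnf4a (chr2:163506808-163572910, plus strand), the factor that defines hepatocytes and enterocytes most widely, had 5 reads in 6 of 50 members, all EED-cKO. It stood at 8.71 CPM (7.78 to 9.72), with 68.9% of the reads in 1 cell, and had 0 reads in the 15 Aire/EED-dKO members, where a floor of 3 reads over the group is 0.225 CPM. A defining factor of the enterohepatic label was thus near 0 in most of the cells, and they are named here by their selection only. Other annotated genes overlap Hnf4a, Hnf4g, Apoa4 and Vil1, and reads were counted without strand, so that part of these levels may belong to a neighbour.

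The lipid transport markers were spread unevenly. Apoa4 (chr9:46240696-46243459, plus strand), an apolipoprotein of chylomicrons, had 5 reads in 27 of 35 and 11 of 15 members, at 131.6 and 150.1 CPM. Apoa1 (chr9:46228580-46230466, plus strand), the main protein of high-density lipoprotein, had 5 reads in 20 of 35 EED-cKO members, at 225.6 CPM, and in 1 of 15 Aire/EED-dKO members, at 11.9 CPM with 89.3% of the reads in that cell. Apoa1 thus marked EED-cKO members in the main. Apob (chr12:7977648-8016835, plus strand), the scaffold of chylomicrons and low-density lipoprotein, had the highest sums, 748.4 and 457.96 CPM, but 5 reads in only 7 and 7 members, and 1 cell held 51.2% and 86.3% of its reads. Fabp1 (chr6:71199827-71205023, plus strand), a fatty acid carrier, had 5 reads in 4 and 4 members. Vil1 (chr1:74409376-74435559, plus strand), which encodes villin, had 5 reads in 24 of 35 and 13 of 15, at 128.1 and 231.8 CPM.

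No member held 5 reads of all 7 markers. The cell with the highest score, from EED-cKO batch 4, held 6 of them and had no Fabp1 read. 5 cells held 5 markers, 16 held 4, 19 held 3, 5 held 2 and 4 held 1. The most frequent pairs were Hnf4g with Vil1 (34 cells), Hnf4g with Apoa4 (33) and Apoa4 with Vil1 (31), while Apob and Apoa1 met in 2 cells. Per exon length, the highest of the 7 was Apoa1 in 16 cells, all EED-cKO, Hnf4g in 11, Apoa4 in 9, Vil1 in 6, Apob in 5 and Fabp1 in 3. The members were a mixture of partial marker profiles.

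**Figure D1:**
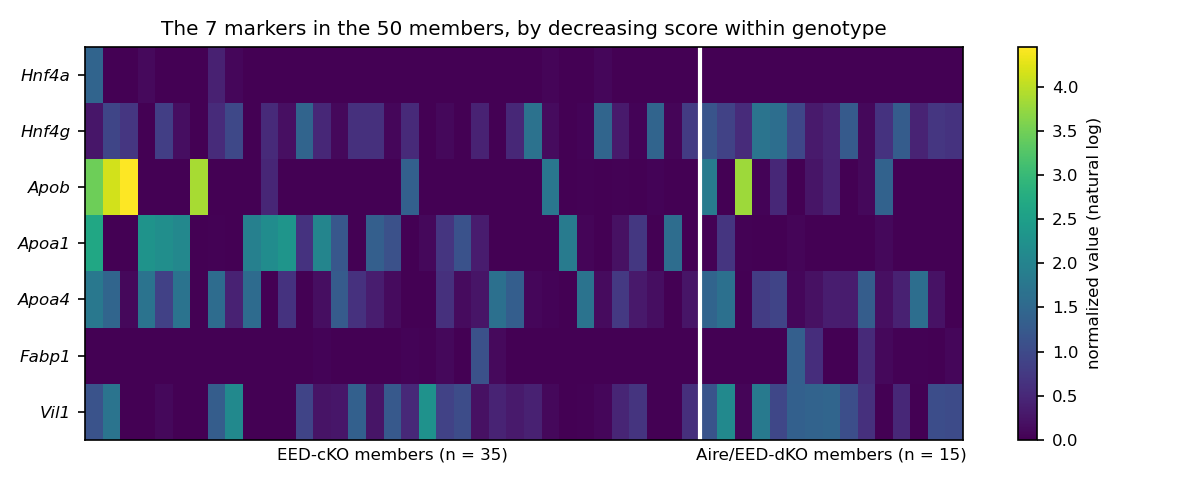
Normalized value (natural log, colour) of the 7 markers (rows) in the 50 members (columns), with the 35 EED-cKO cells left and the 15 Aire/EED-dKO cells right of the white line, in order of decreasing score within each genotype. Hnf4g, with 5 reads in 42 cells, runs across most columns, and Hnf4a, with 5 reads in 6, is near 0 in most.

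To read each marker where it had not been used, the 50 cells were chosen again on the other 6. Hnf4g, Apoa4 and Vil1 were higher in such cells of both genotypes. Hnf4g had 5 reads in 63.2% of the chosen and 24.5% of the other EED-cKO cells, and in 100% and 43.2% in Aire/EED-dKO. For Apoa4 the shares were 70.6% and 26.8%, and 62.5% and 33.2%. For Vil1 they were 50% and 25.8%, and 78.6% and 27.8%. Each of the 3 was thus more frequent in cells chosen on the other markers.

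The other 4 markers were less even, and the share of cells with 5 reads and the summed level differed in direction for some. In EED-cKO, Apoa1 had 41.9% against 14.3% of cells and 140.3 against 11.9 CPM, chosen against other cells. In Aire/EED-dKO it had 15.8% against 16.4% of cells and 10.4 against 2.83 CPM, with a similar share and a higher sum. Apob had 8.57% against 12.3% of cells and 231.3 against 60.9 CPM in EED-cKO, with a lower share and a higher sum, and 33.3% against 11.8% of cells and 57.95 against 27.03 CPM in Aire/EED-dKO. Fabp1 had 8.82% against 3.35% of cells and 1.02 against 1.902 CPM in EED-cKO, with a higher share and a lower sum, and 25% against 3.16% of cells and 21.5 against 0.884 CPM in Aire/EED-dKO. Hnf4a had 17.1% against 1.87% of cells and 8.71 against 2.02 CPM in EED-cKO and no read in the chosen Aire/EED-dKO cells. Differences between genotypes were not tested.

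**Figure D2:**
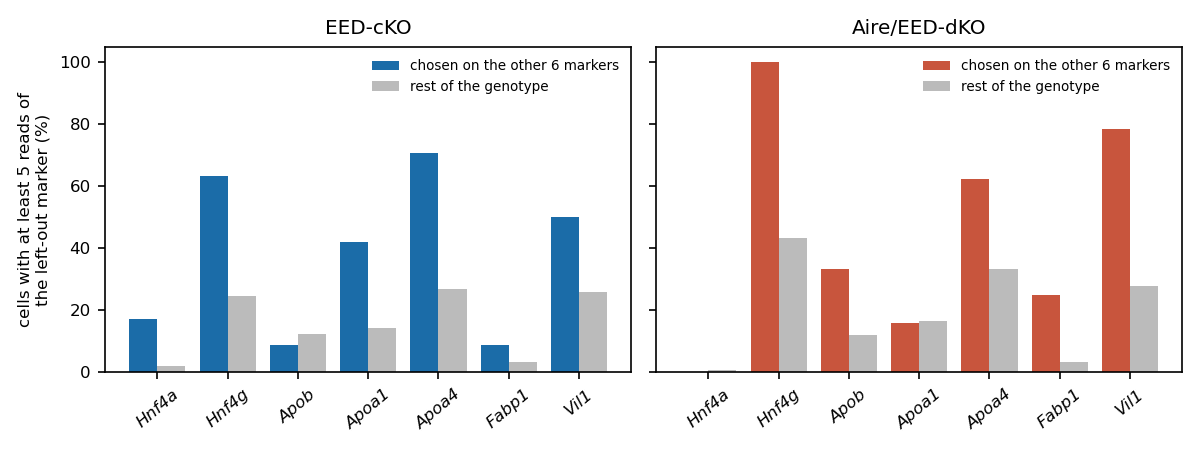
Share of cells (percent) with at least 5 reads of each marker in the cells chosen on the other 6 markers (coloured bars) and in the rest of the genotype (grey bars). Hnf4g, Apoa4 and Vil1 stand above grey in both genotypes, and Apoa1 does so in EED-cKO, at 41.9% against 14.3%.

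For all other genes, the reads of a group's cells were added up, and groups were compared as a log2 ratio of CPM with 0.1 CPM added, and a gene was called where the ratio reached 2-fold. Of 29858 genes tested, 15.1% were called higher and 11.4% lower in EED-cKO members, and 12.4% higher and 27% lower in Aire/EED-dKO members. 1078 genes were higher in both genotypes, which is 23.9% of those of EED-cKO and 29.01% of those of Aire/EED-dKO. 1662 were lower in both, which is 48.7% and 20.7% of the lower genes. The median log2 ratio of all genes was 0.021 and -0.22, and became -0.35 and -0.81 when each gene lost the member cell with most of its reads. Shares of cells with at least 5 reads are given beside many of the sums below. Counts of genes called in the lists below are to be read beside the shares of all genes called.

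Several genes of the brush border that were not used for the selection were higher in both genotypes. Of 11 genes of the microvillus list, 5 were called higher and 0 lower in EED-cKO (median log2 ratio 0.93), and 7 higher and 0 lower in Aire/EED-dKO (median 2.57). Without the top member cell of each gene, 4 and 7 were still called higher and none lower. The median member had 5 reads of 8 of these genes in EED-cKO (3 to 11) and of 10 in Aire/EED-dKO (7 to 11), against 6 in the remaining cells of either genotype.

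Protocadherins, scaffolds and a motor of the complex that ties microvilli together were among the genes called. Cdhr5, a protocadherin (chr7:141269083-141276786, minus strand), ranged from 0 to 713.3 CPM with a median of 77.8 CPM in EED-cKO members, and from 0 to 479.6 CPM with a median of 1.59 CPM in the remaining cells. In Aire/EED-dKO it ranged from 5.45 to 674.4 CPM with a median of 356.3 CPM, against 0 to 405.4 CPM with a median of 13.4 CPM. The groups overlapped, but every Aire/EED-dKO member had Cdhr5 against 58.7% of the remaining cells, and the log2 ratios of 2.31 and 3.34 kept their direction in all 7 batches with at least 3 members.

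Its partner Cdhr2 (chr13:54701461-54736662, plus strand) had 5 reads in 14 of 15 cells against 16.5% in Aire/EED-dKO, at 163.6 CPM (156.8 to 170.7) against 7.03 CPM (6.69 to 7.38). In EED-cKO it had 5 reads in 12 of 35 cells against 11.6%, at 74.8 against 18.5 CPM, and batch 8 had the other direction (-0.18). Anks4b, a scaffold of the same complex, had 5 reads in 14 of 15 cells against 22.8% and 14 of 35 cells against 7.09%, with log2 ratios of 3.29 and 3.21 and again the other direction in batch 8 (-0.28). Both genes were thus read in a larger share of Aire/EED-dKO than of EED-cKO members, and this difference was not tested. Myo7b, its myosin motor, had 5 reads in 13 of 15 cells against 18.1% and 15 of 35 cells against 22.01%, with ratios of 3.88 and 1.42, and the latter was 0.47 without batch 9. Ush1c, the scaffold harmonin, had 5 reads in 11 of 15 cells against 8.66% in Aire/EED-dKO, at 54.3 against 3.08 CPM, while in EED-cKO it had 5 reads in 15 of 35 cells against 26.9%, and its ratio of 0.93 was below 2-fold and became -0.092 without 1 cell. With 1 batch left out, this ratio ran from 0.305 to 1.46.

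Among actin regulators, Eps8, which caps and bundles filaments at the tip, had 5 reads in all 15 Aire/EED-dKO members against 44.5% and in 71.4% against 49.6% in EED-cKO, with ratios of 2.57 and 1.22, and the latter was 0.87 without batch 3. Slc9a3r1, the scaffold NHERF1, was at 259.6 against 119.1 CPM in Aire/EED-dKO and 170.4 against 140.3 CPM in EED-cKO, had 5 reads in nearly all cells, and in Aire/EED-dKO was 0.96 on the log2 scale without batch 7. Ezr (ezrin), Pls1 (fimbrin), Espn (espin) and Myo1a (a brush border myosin) were not called in either genotype. With 1 batch left out, Pls1 reached 1.29, Myo1a 1.24 and Espn -1.13 in Aire/EED-dKO, and Myo1a reached 1.26 in EED-cKO. Ezr stayed within 2-fold. Ezr and Pls1 are used by many epithelia and had 5 reads in nearly all cells of both groups, whereas Espn had 5 reads in fewer members than remaining cells, 65.7% against 81.7% and 46.7% against 74.02%.

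Promoters of 3 genes of the brush border and the enterocyte are shown, as these genes were higher in both genotypes. The motif CAAAGTCCA, bound by HNF4 factors, was searched on both strands (as TGGACTTTG on the other) in the 250 bases before the RefSeq start, which can lie inside the GENCODE gene. Of 32851 RefSeq promoters (GRCm38.p6), 0.384% held it. A promoter was found for 9 of 11 microvillus genes, of which 0 held the motif, and for 17 of 20 enterocyte genes, of which 2 (Alpi and Muc13) did. It was also found for 6 of the 7 markers, 10 lipoprotein genes and 14 hepatocyte genes, of which 0 held the motif. A list gene was counted if any of its promoters held the motif, so that these shares and that of all promoters are not alike. A match is a description of letters and not a binding site, and no match says only that these letters are not in this window. The sequences run 5′ to 3′ on the strand of the gene with a match in capitals, and lie at chr13:54701213-54701462 (plus), chr16:33794239-33794488 (plus, the second of 2 listed starts of Muc13, inside its GENCODE gene, since the first, at chr16:33793787-33794036, held no match) and chr3:72967864-72968113 (minus).
Cdhr2: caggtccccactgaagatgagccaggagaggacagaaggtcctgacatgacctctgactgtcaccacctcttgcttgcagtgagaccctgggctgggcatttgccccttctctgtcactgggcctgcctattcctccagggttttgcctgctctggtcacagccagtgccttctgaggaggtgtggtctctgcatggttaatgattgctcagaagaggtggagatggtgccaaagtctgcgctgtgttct
Muc13: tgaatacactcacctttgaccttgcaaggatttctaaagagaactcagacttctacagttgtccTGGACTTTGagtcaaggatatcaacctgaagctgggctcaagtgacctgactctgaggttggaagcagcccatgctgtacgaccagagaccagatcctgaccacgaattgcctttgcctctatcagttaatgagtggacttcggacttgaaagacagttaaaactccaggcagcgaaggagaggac
Sis: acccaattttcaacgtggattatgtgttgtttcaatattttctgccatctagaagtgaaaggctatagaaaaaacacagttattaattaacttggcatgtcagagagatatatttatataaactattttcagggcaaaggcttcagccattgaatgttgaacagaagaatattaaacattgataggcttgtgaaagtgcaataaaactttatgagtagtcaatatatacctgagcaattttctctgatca

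Genes of the absorptive enterocyte were higher in part. Of 20 tested, 11 were called higher and 3 lower in EED-cKO (median log2 ratio 1.12), where 15.1% and 11.4% of all genes were. In Aire/EED-dKO, 11 were higher and 6 lower (median 1.17), where 12.4% and 27% of all genes were. Without the top member cell of each gene, 7 and 8 were called higher, against 4.23% of all genes in both genotypes. 3 and 9 were then called lower, against 25.1% and 44.6%, and the medians were 0.33 and 0.023. The EED-cKO median was 0.54 without batch 9, 0.35 with day 4 only and 0.31 with 25 members. Cdh17, the liver-intestine cadherin (chr4:11758147-11817895, plus strand), was found in all 50 members. In EED-cKO it ranged from 8.95 to 803.1 CPM with a median of 100.4 CPM, against 0 to 825.1 CPM with a median of 5.06 CPM and 51.9% of cells with 5 reads. In Aire/EED-dKO it ranged from 93.5 to 1662.05 CPM with a median of 510.4 CPM, against 0 to 1342.2 CPM with a median of 98.1 CPM and 84.3%. The groups overlapped, and the log2 ratios of 1.81 and 2.01 had 1 direction in all 7 batches compared.

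Proteins of the apical surface followed. Mep1a, a brush border protease, had 5 reads in 29 of 35 cells against 42.5% in EED-cKO and 14 of 15 cells against 74.4% in Aire/EED-dKO, with log2 ratios of 2.26 and 1.71. Muc13, a membrane mucin, had 5 reads in 16 of 35 cells against 15.3% and 12 of 15 cells against 11.02%, with ratios of 2.26 and 4.44, and its second promoter holds the motif while the first does not. Sis, the enzyme sucrase-isomaltase, had 5 reads in 10 of 15 cells against 13.4% in Aire/EED-dKO, at 319.4 against 8.75 CPM. Its log2 ratio there ran from 3.86 to 5.94 with 1 batch left out. In EED-cKO Sis had 5 reads in 5 of 35 cells against 4.10%, 62.6% of its reads were in 1 cell, and batch 8 had the other direction. Lgals4 (galectin-4) had ratios of 3.03 and 4.39, yet in EED-cKO the same share of both groups had 5 reads, 37.1% and 37.3%, so that the level and not the share of cells differed there.

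Reg3g, an antimicrobial lectin, had 5 reads in nearly all cells and was at 421.1 against 183.7 CPM in EED-cKO and 358.9 against 177.003 CPM in Aire/EED-dKO, log2 ratios of 1.20 and 1.02 that were below 2-fold without batch 9 (0.97) and without batch 1 (0.87) or 2 (0.99). Krt20, a keratin of mature enterocytes, had 5 reads in 13 of 35 cells against 16.8% and 9 of 15 cells against 18.1%, with ratios of 1.04 and 2.64, and in EED-cKO was lower in batch 3 (-4.84) and at 0.016 without batch 9 and 0.99 without batch 8. Slc5a1, the sodium-glucose transporter, had ratios of 3.05 and 3.66 from 3 cells in each genotype. Mep1b, the second meprin, was lower, at 4.13 against 11.99 CPM and 6.98 against 15.5 CPM, with batch 7 in the other direction, and in Aire/EED-dKO its ratio of -1.14 was -0.52 without batch 1 and -0.62 without batch 2. Rbp2, an intracellular retinol carrier, had 5 reads in no member.

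**Figure D3:**
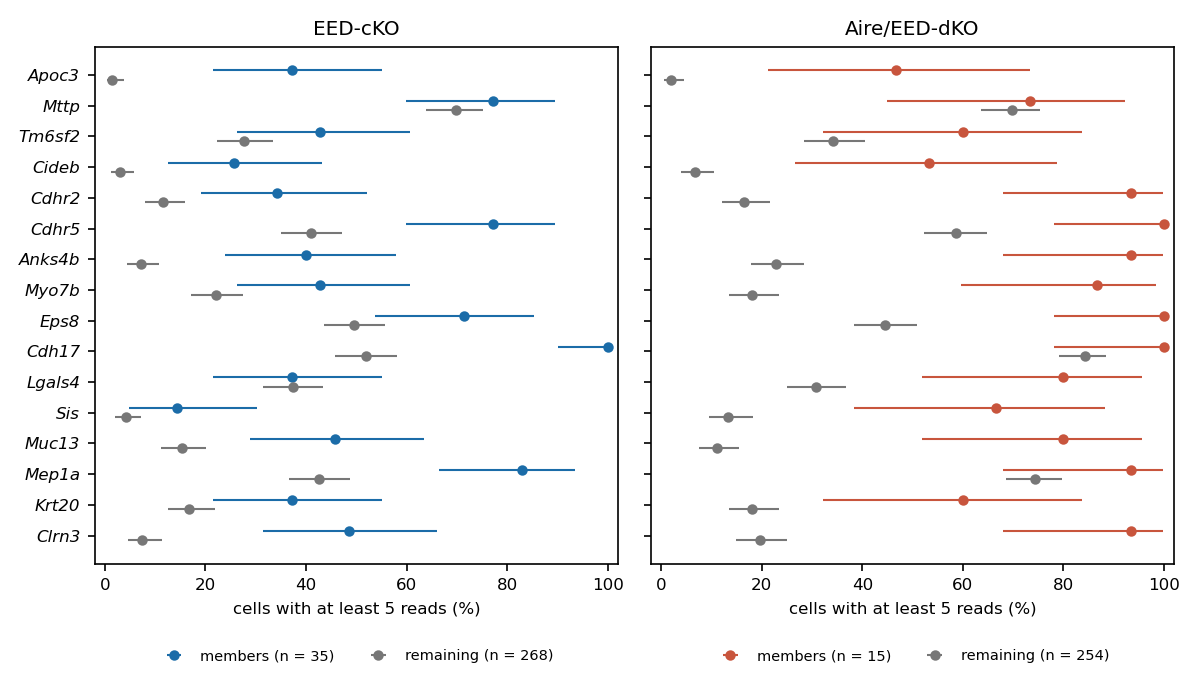
Share of cells with at least 5 reads (percent, bars are Clopper-Pearson 95% intervals for counting error) of 16 genes that did not select the cells, in members (coloured) and remaining cells (grey). Cdh17 reached 100% of EED-cKO members against 51.9%, and Cdhr2 93.3% of Aire/EED-dKO members against 16.5%, while Mttp lay close to grey in both genotypes.

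Of 15 lipoprotein genes tested, 5 were called higher and 1 lower in EED-cKO (median log2 ratio 0.33), where 15.1% and 11.4% of all genes were. In Aire/EED-dKO, 7 were higher and 3 lower (median 0.91), where 12.4% and 27% of all genes were. Without the top member cell of each gene, 4 and 3 were called higher, against 4.23% of all genes in both genotypes. 4 and 4 were then called lower, against 25.1% and 44.6%, and the medians were 0.044 and 0.13. The EED-cKO median was 0.96 without batch 3. Apoc3, an apolipoprotein that inhibits lipoprotein lipase, had the highest ratio of the list in both genotypes. It had 5 reads in 13 of 35 EED-cKO members against 1.49% of the remaining cells (4 cells), and in 7 of 15 Aire/EED-dKO members against 1.97% (5 cells). In EED-cKO its level was 14.6 CPM (13.4 to 15.9) against 0.222 CPM (0.175 to 0.279). In Aire/EED-dKO it was 46.5 CPM (42.9 to 50.3) against 0.499 CPM (0.412 to 0.599), with log2 ratios of 5.51 and 6.28. Single members ranged from 0 to 251.8 CPM with a median of 0 CPM in EED-cKO and from 0 to 252.7 CPM with a median of 5.60 CPM in Aire/EED-dKO. Apoc3 was thus read in some of the members, and batch 1, with 3 members, had the other direction (-2.39).

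Apoc3 (chr9:46232933-46235636, minus strand) lies between the selecting markers Apoa1 and Apoa4. All 13 EED-cKO and all 7 Aire/EED-dKO members with Apoc3 also had 5 reads of Apoa4, and 8 and 1 of them had Apoa1. Among the remaining cells with Apoc3, 1 of 4 and 3 of 5 had Apoa4. Apoa4 belongs to the selection, so this pairing is a description. Of the 8 listed neighbours of the cluster, Apoc3 among them, 2 were called higher and 0 lower in EED-cKO (median log2 ratio 0.25), and 1 higher and 1 lower in Aire/EED-dKO (median -0.15). Apoa5, the next apolipoprotein gene, had 5 reads in 4 of 35 cells against 2.24% in EED-cKO and 0 reads in Aire/EED-dKO members. Sik3, Pafah1b2 and Sidt2, which have 5 reads in nearly all cells, had EED-cKO ratios of 0.24, -0.22 and 0.27. The sequences before the RefSeq starts of Apoa1 (chr9:46228380-46228629, plus strand) and Apoa4 (chr9:46240594-46240843, plus strand) are shown because both genes carried the selection. These starts lie inside the GENCODE genes given above, so that 20% and 59.2% of the bases shown fall within the gene, and the motif was not in these windows.
Apoa1: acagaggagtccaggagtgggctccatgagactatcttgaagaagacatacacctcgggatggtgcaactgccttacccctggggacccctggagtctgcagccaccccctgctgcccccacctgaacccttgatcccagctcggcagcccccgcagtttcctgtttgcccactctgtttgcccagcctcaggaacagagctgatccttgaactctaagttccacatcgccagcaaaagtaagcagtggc
Apoa4: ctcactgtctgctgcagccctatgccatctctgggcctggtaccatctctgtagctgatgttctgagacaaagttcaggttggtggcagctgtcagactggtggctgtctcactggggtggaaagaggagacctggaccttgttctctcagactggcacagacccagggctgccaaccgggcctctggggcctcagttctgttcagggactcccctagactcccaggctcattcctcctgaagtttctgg

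The genes that assemble lipoproteins followed in part. Mttp, which loads lipid onto apolipoprotein B, was at 97.1 against 23.6 CPM in Aire/EED-dKO and 29.5 against 18.05 CPM in EED-cKO, below 2-fold, and had 5 reads in similar shares of both groups. Tm6sf2, which acts in lipidation, had 5 reads in 15 of 35 cells against 27.6% and 9 of 15 cells against 34.3%, with ratios of 2.55 and 1.33, and the latter was 0.93 without batch 1. Cideb, which also acts in lipidation, had 5 reads in 9 of 35 cells against 2.99% and 8 of 15 cells against 6.69%, with ratios of 2.45 and 2.88. Pltp, the phospholipid transfer protein, was lower in every batch compared, at 26.6 against 90.4 CPM and 9.01 against 55.1 CPM, and had 5 reads in 21 of 35 cells against 86.6% and 4 of 15 cells against 77.6%.

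Hepatocyte genes varied in how widely they were read. Of 14 tested, 8 were called higher and 3 lower in EED-cKO (median log2 ratio 1.57), where 15.1% and 11.4% of all genes were. In Aire/EED-dKO, 5 were higher and 4 lower (median 0.37), where 12.4% and 27% of all genes were. Without the top member cell of each gene, 2 and 3 were called higher, against 4.23% of all genes in both genotypes. 4 and 5 were then called lower, against 25.1% and 44.6%, and the medians became -0.21 and -0.84. The EED-cKO median was 0.073 without batch 9 and 0.030 with day 4 only, and the Aire/EED-dKO median was -0.68 without batch 2. The median member had 5 reads of 2 and 3 of the 18 genes listed, against 2 and 2 in the remaining cells. Alb (albumin) had 5 reads in 3 of 35 EED-cKO members, with 96.9% of its reads in 1 cell, and 0 reads in Aire/EED-dKO members. Rbp4, the plasma retinol carrier, had 99.8% of its Aire/EED-dKO reads in 1 cell. Ambp, the precursor of alpha-1-microglobulin and bikunin, was read more widely, with 5 reads in 8 of 15 cells against 10.6% in Aire/EED-dKO, a ratio of 2.998 and 2.59 without its top cell. In EED-cKO it had 5 reads in 9 of 35 cells against 14.6%, with a ratio of 0.48 that ran from -0.080 to 1.29 with 1 batch left out.

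Cps1, the first enzyme of the urea cycle, had 5 reads in 13 of 35 cells against 12.3% in EED-cKO, at 120.8 against 13.1 CPM, and was higher in all 4 batches. In Aire/EED-dKO it had 5 reads in 0 of 15 members against 8.66%. Trf (transferrin) had 5 reads in 22 of 35 cells against 51.9% and 10 of 15 cells against 64.96%, with log2 ratios of 1.87 and 1.62 that were 0.72 without batch 9 and 0.55 without batch 7. Hpx (hemopexin) had 5 reads in 8 of 35 cells against 9.33% and 4 of 15 cells against 6.30%, with ratios of 1.64 and 1.78 and 75.4% of its EED-cKO reads in 1 cell. The EED-cKO ratio of Hpx was -1.65 without batch 9, and that of Aire/EED-dKO was 0.96 without batch 1.

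Of 21 other transcription factors of intestine and liver, 4 were called higher and 5 lower in EED-cKO (median log2 ratio -0.15). Of all genes, 15.1% and 11.4% were. In Aire/EED-dKO, 9 were higher and 5 lower (median 0.79), where 12.4% and 27% of all genes were. Without the top member cell of each gene, 0 and 4 were called higher, against 4.23% of all genes in both genotypes. 10 and 7 were then called lower, against 25.1% and 44.6%, and the medians were -0.86 and -0.17. With 1 batch left out, the EED-cKO median of the list ran from -0.54 to 0.24. The Aire/EED-dKO median was 0.045 without batch 2 and 0 without the 5 highest-scoring cells. Cdx1, Foxa1 and Cebpa, which most members carried, were within 2-fold. Cdx1, an intestinal homeobox factor, had ratios of -0.67 and -0.038, Foxa1 of 0.38 and 0.51 and Cebpa of 0.17 and 0.79. In EED-cKO they had 5 reads in 32 of 35 cells against 86.6%, 24 of 35 cells against 60.8% and 29 of 35 cells against 84.3%, and in Aire/EED-dKO in 15 of 15 cells against 94.1%, 14 of 15 cells against 84.3% and 9 of 15 cells against 77.2%. Gata4 and Gata5 were called higher in both genotypes, but 1 cell held 83.2% and 92.4% of their EED-cKO reads, and without it the ratios were -0.35 and -0.22. In Aire/EED-dKO, Gata5 was at -0.18 without its top cell. Onecut1 and Creb3l3, factors of liver, had 0 reads in Aire/EED-dKO members. With 3 reads as the floor, their summed levels were at least 1.32- and 3.52-fold lower there, so that Onecut1 was not past 2-fold. They had 5 reads in 1.97% and 4.33% of the remaining cells, and the interval for 0 of 15 members reached 21.8%. Their EED-cKO ratios of -1.33 and -1.33 were 1.89 without batch 3 and -0.38 without batch 9. Nr1i3, also of liver, had ratios of -1.25 and -1.81, and the former was -0.90 without batch 8.

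Aire (chr10:78030022-78043610, minus strand) was read in all EED-cKO members. The 35 members ranged from 5.002 to 2928.7 CPM with a median of 574.3 CPM, and the remaining cells from 3.38 to 3705.9 CPM with a median of 793.04 CPM. The groups overlapped widely, with 12 members above the median of the remaining cells and 23 below it. The summed level was 630.5 CPM (622.4 to 638.7) against 891.5 CPM (888.2 to 894.7), a log2 ratio of -0.50. It was -1.24 in batch 3, -0.082 in batch 4, 0.15 in batch 8 and -0.50 in batch 9, so that batches did not share a direction, and without batch 3 it was -0.19.

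In Aire/EED-dKO, in which Aire is knocked out, the reads that remain on the gene were lower in the members. Dnmt3l, annotated on the other strand, overlaps Aire, and reads were counted without strand. 4 of 15 members had 5 reads against 62.2% of the remaining cells. Members ranged from 0 to 77.8 CPM with a median of 3.69 CPM, against 0 to 1665.5 CPM with a median of 7.74 CPM. The log2 ratio was -2.14, and -2.15, -0.73 and -3.54 in batches 1, 2 and 7. 1 remaining cell labelled Aire/EED-dKO, from batch 7, had 1748 Aire reads (1665.5 CPM), 32.01% of the group and within the range of EED-cKO cells. Without it the ratio was -1.59. With 100 cells selected in place of 50, this cell, at rank 63, became a member and the ratio turned to 2.07.

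**Figure D4:**
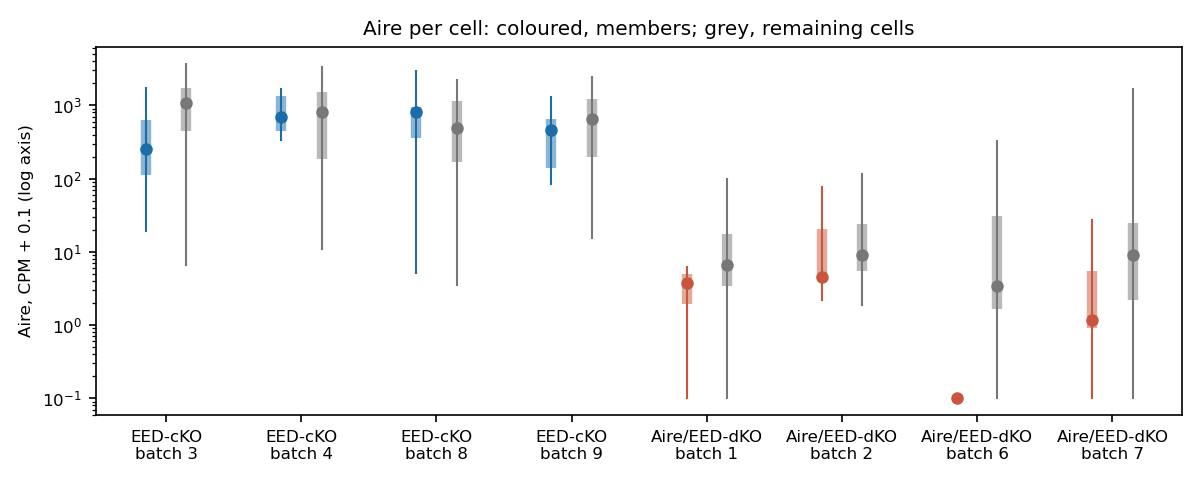
Aire per cell in CPM, with 0.1 added (log axis), in members (coloured) and remaining cells (grey) of each of the 8 batches. Points are medians, thick bars quartiles and thin lines the range, and EED-cKO members overlap the remaining cells in every batch, with medians of 574.3 and 793.04 CPM over all batches.

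Most genes of the mTEChigh state lay within 2-fold between the groups. Of 12 genes, 0 were called higher and 0 lower in EED-cKO (median log2 ratio -0.36), where 15.1% and 11.4% of all genes were (median 0.021). In Aire/EED-dKO, 0 were higher and 3 lower (median -0.37), where 12.4% and 27% of all genes were (median -0.22). Without the top member cell of each gene, 3 and 5 were called lower, against 25.1% and 44.6% of all genes. Over the alternatives run, the list medians ran from -0.54 to 0.035 in EED-cKO and from -0.80 to 0.047 in Aire/EED-dKO. H2-Aa and H2-Ab1 (MHC class II) had ratios of 0.18 and 0.15 in EED-cKO and -0.072 and -0.081 in Aire/EED-dKO. Cd80, a costimulatory ligand, was at 103.4 against 126.3 CPM and 212.95 against 248.8 CPM. Ciita, the activator of MHC class II genes, was lower in all 7 batches compared, at 223.99 against 411.8 CPM and 156.4 against 460.8 CPM, with 5 reads in 34 of 35 cells against 98.5% and 14 of 15 cells against 99.2%. Fezf2, a factor for tissue-restricted antigens, was likewise lower in each of them, with ratios of -0.89 and -0.60 and 5 reads in 33 of 35 cells against 99.3% and 15 of 15 cells against 100%. Foxn1, the thymic epithelial factor that also drives the Cre, had ratios of -0.94 and -0.29, and the latter ran from -2.70 without batch 7 to 0.052 without batch 2.

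Of 10 PRC2 genes, 0 were called higher and 0 lower in EED-cKO (median log2 ratio -0.25), and 1 higher and 0 lower in Aire/EED-dKO (median -0.073). In Aire/EED-dKO, 12.4% of all genes were called higher and 27% lower. Eed was still read, at 8.65 against 11.8 CPM and 7.88 against 12.99 CPM, and reads from exons outside the floxed part do not report the deletion. Jarid2 and Aebp2, accessory subunits, had ratios of -0.77 and -0.83 in EED-cKO. Phf19, another accessory subunit, was the gene called higher, at 39.5 against 10.6 CPM in Aire/EED-dKO.

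Genes of the cell cycle were lower in the members. Of 10 cycling genes, 0 were called higher and 9 lower in EED-cKO (median log2 ratio -2.84), and 0 higher and 8 lower in Aire/EED-dKO (median -1.64). The Aire/EED-dKO median was -2.68 without batch 2 and -3.35 with 25 members. Mki67 was at 23.7 against 251.03 CPM and 35.4 against 100.5 CPM, and Top2a at 13.1 against 161.3 CPM and 17.3 against 59.7 CPM. High levels were found in a minority of the remaining cells. Among remaining EED-cKO cells, 46 (17.2%, 12.8 to 22.2%) had over 500 CPM of the list, against 1 of 35 members (2.86%, 0.0723 to 14.9%). In Aire/EED-dKO they were 17 remaining cells (6.69%) against 0 of 15, which allows up to 21.8%. Of the remaining EED-cKO cells above 500 CPM, 15 came from batch 8 and 23 from batch 9, both of day 3. The counting intervals of members and remaining cells overlapped in both genotypes. The median cell did not follow this direction, at 69.2 against 58.2 CPM and 75.5 against 60.4 CPM. Without the cells above 500 CPM, the medians of the list turned to 0.31 and 0.42.

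**Figure D5:**
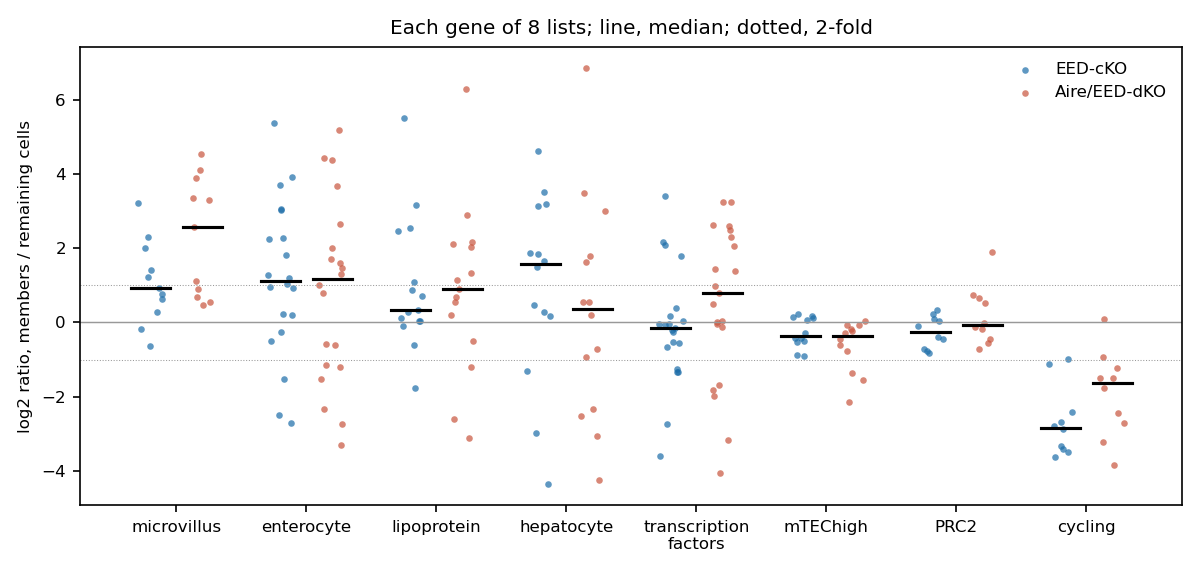
Log2 ratio of summed CPM, members over remaining cells, of each tested gene (points) of 8 lists by genotype, with the median (black line) and the 2-fold limits (dotted). The microvillus genes of Aire/EED-dKO all lie above 0, with a median of 2.57, and the cycling genes have medians of -2.84 and -1.64.

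The 10 highest genes of EED-cKO with 1 direction in every batch included the markers Apoa1 and Vil1, and Apoc3. The others were Tacr2 (5.19), Tarm1 (4.46), Vrtn (4.19), Adgrg7 (4.06), Syt3 (3.89), Timd2 (3.86) and Clrn3 (3.75). Clrn3, of the clarin family, was the most widespread of these 7. It had 5 reads in 17 of 35 cells against 7.46% in EED-cKO and 14 of 15 cells against 19.7% in Aire/EED-dKO, where its ratio was 3.802. Tacr2, a neurokinin receptor, Tarm1, Vrtn and Syt3, a synaptotagmin, had 57.1%, 63.9%, 64.96% and 70.5% of their EED-cKO reads in 1 cell. Vrtn had 0 reads in Aire/EED-dKO members, and its summed level was at least 14.2-fold lower there, with 3 counts over the group as the floor. It had 5 reads in 9.84% of the remaining cells, and the interval for 0 of 15 members reached 21.8%. Over the alternatives run, its weakest log2 ratio there was -2.07.

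The 10 highest of Aire/EED-dKO included the marker Apob. The others were Serpina1b (7.24), Lypd8 (7.09), Trim31 (6.53), Ceacam20 (6.47), 2210407C18Rik (6.33), Muc4 (6.15), Hsd17b6 (5.83), Gabrp (5.66) and 1810044K17Rik (5.59). With 1 batch left out, Hsd17b6 ran from 4.10 to 7.08, Gabrp from 4.33 to 7.09 and Serpina1b from 4.80 to 8.12. Lypd8, a protein of the colonic surface that binds flagella, had 5 reads in 10 of 15 cells against 7.09%, at 207.6 against 1.42 CPM. Ceacam20, of the intestinal apical membrane, and Muc4, a membrane mucin, each had 5 reads in 8 of 15 cells against 3.94%. In EED-cKO the ratios of Lypd8, Ceacam20 and Muc4 were 0.88, 0.60 and -0.63, below 2-fold, with 5 reads in 7 of 35 cells against 6.72%, 4 of 35 cells against 4.10% and 5 of 35 cells against 10.4%, and the difference between genotypes was not tested. With 1 batch left out, these EED-cKO ratios ran from 0.017 to 1.43, from -0.32 to 1.41 and from -1.94 to 0.34. Each thus passed 2-fold at 1 end, Muc4 as lower. Serpina1b belongs to a family of near-identical copies, overlaps 4 genes and had 86.5% of its reads in 1 cell, so that its value is uncertain.

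The 10 lowest of EED-cKO were genes of the cell cycle and DNA repair. They were E2f7 (-4.99), Iqgap3 (-4.83), Kif11 (-4.75), Exo1 (-4.69), Plk1 (-4.41), Kif2c (-4.33), Ndc80 (-4.15), Hmmr (-4.14), Cdca8 (-4.13) and Cep55 (-4.13). Without the cells above 500 CPM of cycling genes, a setting chosen after seeing the data, Hmmr turned to 0.39, and Cdca8, Cep55, Ndc80 and Plk1 were within 2-fold, at -0.54, -0.78, -0.33 and -0.60. The other 5 stayed past 2-fold, at -3.72 for E2f7, -2.91 for Exo1, -1.38 for Iqgap3, -1.14 for Kif11 and -1.88 for Kif2c. The 10 lowest of Aire/EED-dKO had 0 or 1 to 2 reads in all 15 members. Frem2, an extracellular matrix protein, was at 0.0751 against 34.002 CPM, with 5 reads in 32.3% of the remaining cells. Syndig1, Trim9, Slc2a10, Siglecg, Cdc7, Nell1 and Gm13183 had 0 reads. With 3 reads over the group as the floor, their summed levels were at least 87.9-, 62.8-, 47.2-, 42.3-, 39.2-, 37.5- and 36.5-fold lower. Myh7 and Gabrg3, at 0.0751 against 15.5 CPM and 0.150 against 20.1 CPM, were the others. The most widespread of them in the remaining cells, Gm13183, had 5 reads in 40.6% of these. The floor covers counting error of reads only. The interval for 0 of 15 members with 5 reads reached 21.8%, and Nell1 had 5 reads in 20.9% of the remaining cells. Over the alternatives run, the weakest log2 ratios were -0.35 for Nell1, -0.50 for Myh7, -1.18 for Slc2a10, -1.34 for Frem2 and -1.39 for Syndig1. They were -1.53 for Siglecg, -1.61 for Gm13183, -1.83 for Trim9, -1.88 for Gabrg3 and -2.25 for Cdc7.

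Other lineages were compared by the same lists. Of all genes, 15.1% were called higher and 11.4% lower in EED-cKO, and 12.4% and 27% in Aire/EED-dKO. Some counts lay near these shares, such as 3 of 10 keratinocyte and 2 of 8 endocrine genes lower in Aire/EED-dKO. Keratinocyte genes called higher and lower were 0 and 4 of 10 in EED-cKO and 3 and 3 in Aire/EED-dKO, microfold genes 2 and 1 of 7 in EED-cKO and 4 and 2 in Aire/EED-dKO, and endocrine genes 3 and 1 of 8 in EED-cKO and 2 and 2 in Aire/EED-dKO. Ccl20, a chemokine of microfold epithelium, was at 102.8 against 23.5 CPM in EED-cKO with 5 reads in 16 of 35 cells against 19.4%, and at 42.04 against 15.5 CPM in Aire/EED-dKO, where its log2 ratio of 1.43 was 0.99 without batch 1. Insm1, an endocrine factor, was lower in every batch compared, at 36.7 against 110.5 CPM and 80.7 against 224.4 CPM. Tuft genes were 0 and 2 of 7 in EED-cKO and 0 and 3 in Aire/EED-dKO, ciliated genes 2 and 1 of 6 in EED-cKO and 2 and 1 in Aire/EED-dKO, airway goblet genes 2 and 0 of 6 in EED-cKO and 1 and 2 in Aire/EED-dKO, muscle genes 1 and 3 of 8 in EED-cKO and 1 and 5 in Aire/EED-dKO and parathyroid genes 0 and 1 of 3 in EED-cKO and 0 and 0 in Aire/EED-dKO. The medians of these lists are given for EED-cKO and then Aire/EED-dKO. They were -0.50 and -0.36 for keratinocyte, 0.14 and 1.28 for microfold, -0.0077 and -0.35 for tuft, 0.43 and 0.73 for ciliated and -0.26 and -0.14 for airway goblet genes. With genes at 0 reads set to their bound, they were 0.34 and -0.26 for endocrine, -0.35 and -0.93 for muscle and -0.50 and 0 for parathyroid genes. In Aire/EED-dKO the microfold median thus lay above the medians of the enterocyte (1.17), lipoprotein (0.91) and hepatocyte (0.37) lists. Without the top member cell of each gene it was -1.20, against 0.023 for the enterocyte list, and 0 of the microfold genes were called higher. Ttn (titin) was at 325.4 against 2850.8 CPM in Aire/EED-dKO and 1329.1 against 1083.9 CPM in EED-cKO.

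Among thymic lists, genes called higher and lower were 0 and 1 of 6 in EED-cKO and 0 and 1 in Aire/EED-dKO for mTEClow, 1 and 0 of 6 in EED-cKO and 2 and 1 in Aire/EED-dKO for cTEC and 0 and 0 of 4 in EED-cKO and 1 and 0 in Aire/EED-dKO for all thymic epithelium. Their medians were -0.53 and -0.51, 0.35 and 0.79 and -0.28 and 0.33. The shares of all genes called higher and lower were 15.1% and 11.4% in EED-cKO and 12.4% and 27% in Aire/EED-dKO. Epcam was at 479.8 against 237.9 CPM in Aire/EED-dKO and 304.2 against 301.7 CPM in EED-cKO, and its Aire/EED-dKO log2 ratio of 1.01 was 0.89 without batch 2. Ly75, an endocytic receptor of cortical epithelium, was at 370.9 against 104.7 CPM and 101.5 against 84.7 CPM. Krt5 and Itgb4, of basal epithelium, had ratios of -1.50 and -0.97 in EED-cKO. Of 8 thymocyte genes, 5 were called higher and 0 lower in EED-cKO (median log2 ratio 1.28), and 4 higher and 0 lower in Aire/EED-dKO (median 0.98), and without the top member cell of each gene none was called higher. Their summed level ranged from 0 to 1155.9 CPM in EED-cKO members and from 0 to 2416.5 CPM in Aire/EED-dKO members. The medians were 23.2 and 16.4 CPM, against 17.9 and 16.4 CPM in the remaining cells. The part of thymocyte RNA in the other results was not tested.

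The 50 members were also set against the 50 highest cells by other lists. 21 members were among those of the microvillus list, 8 from EED-cKO and 13 from Aire/EED-dKO. The numbers were 21 for the enterocyte list, 14 for hepatocyte, 10 for microfold, 6 for keratinocyte and 6 for endocrine genes. Within EED-cKO, the 20 members with 5 reads of Apoa1 and the 15 without had similar numbers of other genes. Their medians were 8 and 7 microvillus genes and 7 and 7 enterocyte genes, and Apoc3 had 5 reads in 8 and 5 of them. Median Aire was 589.02 CPM in the former (5.002 to 1726.4) and 459.9 CPM in the latter (116.97 to 2928.7).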

How the data were processed

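Per the methods and the submitters' processing notes, the authors trimmed reads with fastp 0.20.0, aligned them to mm10 (GRCm38) with STAR 2.7.3a, processed alignments with SAMtools 1.9, removed duplicates with Picard 2.21.1 and counted reads per Ensembl gene without strand with HTSeq 0.11.2. The deposited counts are whole reads per gene and cell. The deposited normalized values are the natural log of reads per 10000 of a cell plus 1, and were recomputed from the counts, with a largest difference of 5.33e-15 in 8 cells checked. 50011 of 50197 gene identifiers were named from GENCODE of the same build, and 0 columns were left unused. Cells held 205703 to 2419312 reads (median 1104029).

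The members, gene lists and rules were chosen with earlier results of these data known. Summed CPM was compared for genes reaching 5 reads in 5 or more cells. Intervals were exact Poisson for CPM and Clopper-Pearson for shares. Named genes were the markers, Aire, Eed, Cd80, H2-Aa and H2-Ab1, up to 4 genes per list with the highest CPM in members, list genes past 2-fold in both genotypes, and per genotype the 10 largest ratios in each direction among genes with 5 reads in 20% of the members (higher) or remaining cells (lower) and 1 direction in every batch with 3 members. Other list genes were named after their values were seen. Of the genes this rule names, those not given singly enter the counts and medians of their lists, and 1 is not reported here. Alternatives were other scalings (edgeR 4.0.16 and DESeq2 1.42.0 factors only, in R 4.3.3), added CPM, filters, member choices, ages and batches left out. Calculations used Python 3.11.15 with numpy 2.4.6, pandas 2.3.3 and scipy 1.17.1, and were tested on simulated data.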

Additional observations from a re-analysis of the deposited data

Results flagged for a closer look

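In groups of 4 batches, 1 batch stood far from the other 3 in 7 (6.19%), where chance gives about 1 in 20. Log2 ratios could be examined in this way only in EED-cKO, since Aire/EED-dKO had fewer than 4 batches with at least 3 members. Foxn1 had -0.078 in batch 4, against -1.17, -1.23 and -1.29 in batches 3, 8 and 9. Anks4b had -0.28 in batch 8, Eps8 1.96 and Pls1 1.18 in batches 3 and 8, and Slc5a1, which 3 EED-cKO members carried with 5 reads, -4.51 in batch 4. Myh7 had 2.75 in batch 8 and Siglecg -6.41 in batch 3.

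4 genes (3.85% of those compared) were higher in every EED-cKO batch and lower in every Aire/EED-dKO batch with at least 3 members, and this difference between genotypes was not tested. They were Cps1 (3.19 and -4.25), Vrtn (4.19 and -5.05), Tarm1 (4.46 and -3.18) and Syt3 (3.89 and -2.38). In the 15 Aire/EED-dKO members they had 4, 0, 2 and 0 reads, so that the negative values depend on the CPM added, and with 3 reads as the floor Syt3 was at least 1.87-fold lower. In the remaining Aire/EED-dKO cells, 8.66%, 9.84%, 10.2% and 4.33% had 5 reads, and the interval for 0 of 15 members reached 21.8%. Vrtn, Tarm1 and Syt3 were compared because they were among the highest of EED-cKO with 1 direction in every batch, so that their EED-cKO side was fixed by that choice.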

How the results depend on the processing

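No paired analysis was possible because the numbers that the genotypes share in the labels are numbers of cells, and nothing links a cell of one genotype to a cell of the other. With members chosen by the number of markers with 5 reads, 54% were EED-cKO cells in place of 70%, and 29 of 50 were shared. In EED-cKO, the share of tested genes called higher went from 15.1% to 8.88% with 1 CPM added, 4.23% without the top member cell of each gene and 11.2% where 5 reads were required in 28 cells, which left 21690 of 29858 genes. The share called lower went from 11.4% to 4.69%, 25.1% and 8.18% under these settings, 17.6% with day 4 only and 20.9% with 25 members. In Aire/EED-dKO, the share called higher went from 12.4% to 8.03% with 1 CPM added and 4.23% without the top member cell, and that called lower from 26.95% to 11.5% and 44.6%, 22.5% of the genes left by 28 cells and 13.7% with 100 members. Each of these settings moved the number of genes by over 1.5 times. Leaving out 1 batch gave 14.7% to 16.4% higher and 12.5% to 16.5% lower in EED-cKO, and 12.4% to 13.4% and 27.4% to 32.5% in Aire/EED-dKO. For Aire it gave -0.68 to -0.19 and -2.90 to -1.28, and Aire in Aire/EED-dKO turned to 2.07 with 100 members. In EED-cKO, the median of the hepatocyte list turned to -0.21 without the top member cell, Sis to -2.50 with 25 members and Krt20 to -1.52 with day 4 only. There Alb turned to -0.60 with day 4 only, -2.15 with 25 members and -1.71 without its top member cell, Alpi to -2.40 and Gata4 to -0.74 with 25 members, Hpx to -2.41 with day 4 only, and Gata4, Gata5 and Hpx to -0.35, -0.22 and -0.34 without the top member cell. With 100 members Nr1i3 turned to 0.12 and Syndig1 to 0.43. With 1 batch left out, Alb ran from -1.902 to 5.39, Gata4 from -0.77 to 2.95, Hpx from -1.65 to 2.56 and Onecut1 from -2.39 to 1.89, and in Aire/EED-dKO Gata5 from -0.16 to 3.50 and Rbp4 from -0.66 to 7.75. In Aire/EED-dKO, Gata5 and Rbp4 turned to -0.18 and -0.80 without the 5 highest-scoring cells and -0.18 and -0.87 without the top member cell. Tacr2 in Aire/EED-dKO turned to -2.20 without batch 7, was up to 4.06 with another batch left out, and was -2.06 without its top member cell. Without cells above 500 CPM of cycling genes, the cycling list turned to 0.31 and 0.42, Mki67 to 0.33 and 0.65, Hmmr to 0.39 and 0.53, and in Aire/EED-dKO Cep55 to 0.46, Iqgap3 to 0.64, Kif11 to 0.60 and Top2a to 0.19. Of the pairs of gene and genotype past 2-fold for which these settings were run (genes given by a ratio in the text, the 7 markers left out), 22 (15.6%) changed direction under at least 1 setting. Removing the top cell takes reads from the members only. The settings that leave out cycling cells, the 5 highest-scoring cells or the cell with most Aire reads, and the score per exon length, were chosen after seeing the data. With 15 members in Aire/EED-dKO, genes read in few cells were not measured with precision.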

Other observations

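Among cells labelled Aire/EED-dKO, the highest Aire levels after the cell of batch 7 described above were 323.9 CPM (batch 6) and 153.9 CPM (batch 7). Neither was a marker-high cell, and they ranked 546 and 80 by the score.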
